A study of Mus musculus with 8 samples.

Results

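Plasma protein, clotting and complement genes were examined in cultured mouse hepatocellular carcinoma cells of the 3H3 line by RNA-seq. The group comprised 55 genes, chosen by symbol for their roles, among 54838 rows in each of the deposited tables, and all 55 were found. The 8 libraries were 7 of 3H3PM subclones, numbered 1, 2, 3, 6, 7, 8 and 9, and 1 of 3H3P cells. All come from a liver tumour of a C57BL/6 mouse without MC4R on a high-fat diet and carry an Hras mutation and a Trp53 knockout made with CRISPR/Cas9. The 3H3PM cells also express MYC ectopically and were isolated from tumours in nude mice, whereas 3H3P is the line before MYC was introduced. The effects of the added MYC, of passage through a mouse and of isolation as a subclone cannot be told apart, and each subclone is a separate isolate with 1 library.

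Hepatocytes secrete most proteins of blood plasma. These include carriers such as albumin, the fibrinogen chains and the zymogens of the clotting cascade, the inhibitors that restrain clotting, and the bulk of circulating complement. Complement is started by the classical, lectin or alternative route, all of which cleave the protein encoded by C3, and it is held back on host cells by regulators such as those encoded by Cd55 and Cd59a. Liver cells often lose such transcripts in culture. Several of these genes, such as those of clusterin, tissue factor and thrombomodulin, are also expressed in other cell types.

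Libraries held 12838521 to 17987068 expected counts, and every pair of libraries differed by more than sampling noise (chi-square per degree of freedom 12.6 to 240). Mitochondrial genes took 1.97 to 2.31% of counts in the subclones and 3.18% in the library labelled 3H3P. Trp53 was at 41.4 to 60.0 TPM (a level scaled for transcript length and library size) in the subclones, against 188 TPM in the library labelled 3H3P, and a frameshift need not remove the transcript. Mouse Myc was at 2.59 to 9.47 TPM in the subclones, against 64.0 TPM in the library labelled 3H3P, so counts of the mouse gene do not show the ectopic MYC and the labels are used as names. The labelled cell type was set against 14 hepatocyte markers. Only Alb, Apob, Apoa2 and Hnf4a reached 1 TPM in any library, 5 were at 0 counts in all, and the summed level was 0.98 to 9.56 TPM in the subclones and 141 TPM in the library labelled 3H3P. Apob (97.45 TPM) and Hnf4a (38.0 TPM) made up most of the latter sum. Apoa2 was at 0.53 to 2.50 TPM in the subclones and 1.93 TPM in the library labelled 3H3P. Lymphocyte markers summed to at most 0.03 TPM in every library and endothelial markers to 0.20 to 1.02 TPM in the subclones and 2.05 TPM in the library labelled 3H3P. The macrophage list summed to 35.3 to 126 TPM in the subclones and 366 TPM in the library labelled 3H3P, mostly from Cd14 (25.4 to 108 TPM and 358 TPM in the same libraries), while the pan-leukocyte gene Ptprc was at 0 to 0.03 TPM throughout. The fibroblast list, of which 6 of 10 genes reached 1 TPM, summed to 30.6 to 139 TPM in the subclones and 107 TPM in the library labelled 3H3P. In that library Dcn made up 106 TPM, against at most 0.07 TPM in the subclones. Pdgfrb and Pdgfra went the other way, at 26.1 to 40.2 and 0.90 to 92.8 TPM in the subclones against 0.20 and 0.18 TPM there. The cholangiocyte and progenitor list, led by Spp1 and without Epcam, summed to 687 to 1741 TPM in the subclones and 2985 TPM in the library labelled 3H3P, and the platelet list to 2.70 to 6.13 TPM and 11.3 TPM. The part that these differences play in the results below was not tested.

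Of the 55 genes, 28 reached 1 TPM in at least 1 library and 27 did not. The 28 were Alb, Fetub, Hpx, Clu, Fga, Fgb, F3, F5, F8, Kng1, Agt, Serpinc1, Serpinf1, Serping1, Proc, Tfpi, Thbd, Itih2, C1ra, C1s1, C2, C4b, Masp1, Cfb, Cfp, Cfi, Cd55 and Cd59a. Between 12 and 19 genes reached 1 TPM in a subclone, the fewest in subclone 2, and 24 did so in the library labelled 3H3P. In all 8 libraries at once 10 genes did. Among the 27 below that level, 10 had 0 counts everywhere: Vtn, F2, F9, F10, F12, Tfpi2, Mbl2, Cfd, C6 and C8a. Where a library shows 0 counts, up to 3 counts remain possible by counting error. Ttr, Ahsg, Ambp, Fgg, F7, F11, F13b, Serpind1, Serpinf2, Plg, Itih1, Itih3, Itih4, Itih5, Masp2, Hc and C9 peaked between 0.02 and 0.75 TPM. Thus prothrombin, most other clotting zymogens of the liver and the terminal complement genes among the 55 were at or near the limit of detection in both groups. Summed over all 55 genes the level was 288 to 1013 TPM (median 621) in the subclones and 1770 TPM in the library labelled 3H3P. Of these sums Clu alone made up 83.3 to 145 TPM in the subclones and 1006 TPM in that library, so the gap rests largely on 1 gene.

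**Figure D1:**
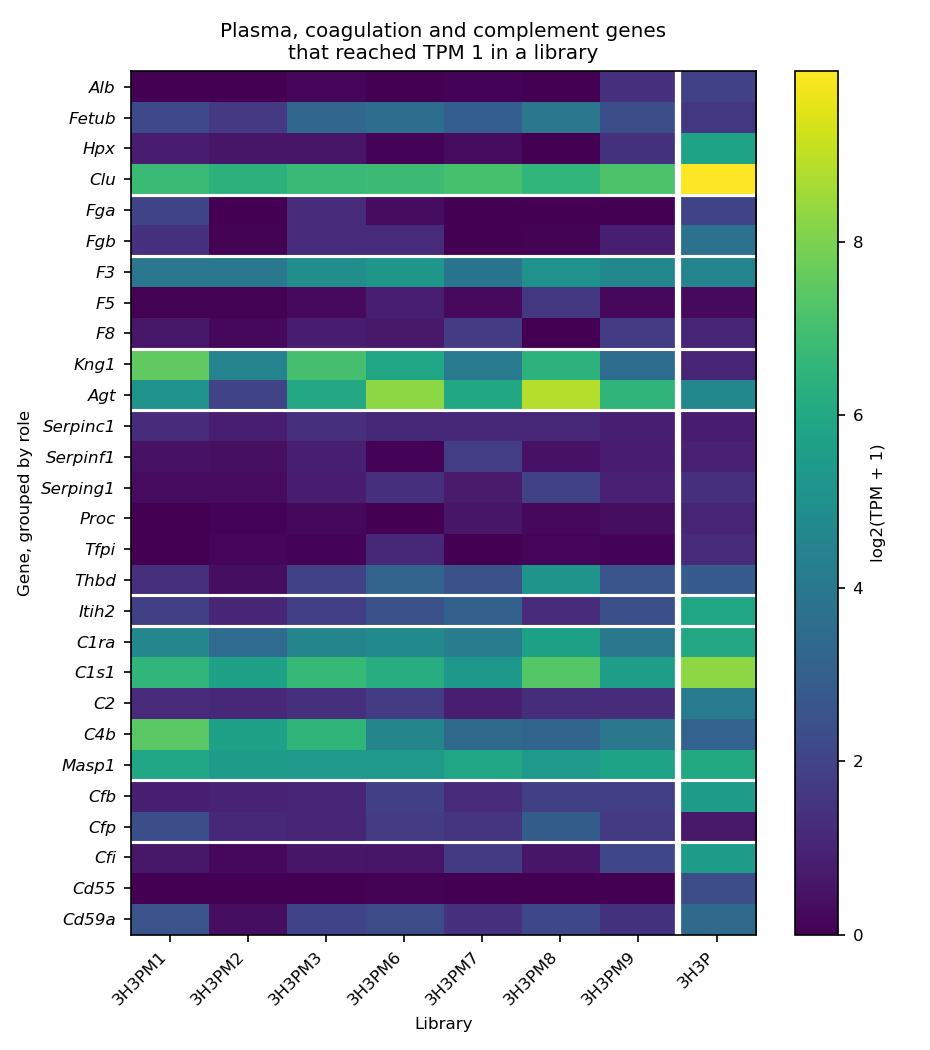
Heat map of the 28 genes that reached 1 TPM in a library (rows, grouped by role) in the 7 subclones labelled 3H3PM (left) and the library labelled 3H3P (right), coloured by log2(TPM + 1) of the deposited values. Clu is the brightest row in the library labelled 3H3P at 1006 TPM, while Agt in subclone 8 is the brightest cell among the subclones at 464 TPM.

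For the test across genes, 30 of the 55 passed the filter on low counts and 25 did not. The filter asks for enough counts in 1 library only, and 2 of the 30, Proc and Cd55, passed through the library labelled 3H3P alone, so the counts below describe these genes and carry no weight as support. By edgeR's quasi-likelihood test with Benjamini-Hochberg adjustment over 14634 genes, 8 of the 30 were lower in the subclones (Hpx, Clu, Itih2, C1s1, C2, Cfb, Cfi and Cd55), 0 were higher and 22 did not pass. Over all genes 11.8% were called lower and 7.33% higher. At an unadjusted p under 0.05, 12 were lower (18.8% of all genes) and 1 was higher (15.3%), and DESeq2 called 8 lower (11.9%) and 1 higher (11.4%). Limma-voom called 13 lower (15.3% of all genes). A stricter filter, a CPM of at least 1 in at least 4 libraries, kept 19 of the genes and called 5 lower (9.64%), and limma on log2(TPM + 0.1) called 1 higher (9.2%). The median log2 fold change was −1.42 over the 30 genes and 0.03 over all genes tested. The library labelled 3H3P lay outside the range of the subclones for 23 of the 30 genes, above it for 17 and below it for 6, where 57.4% of all genes tested did so. Because 3H3P has 1 library, its own variation was not measured and was taken to be that of the subclones.

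**Figure D2:**
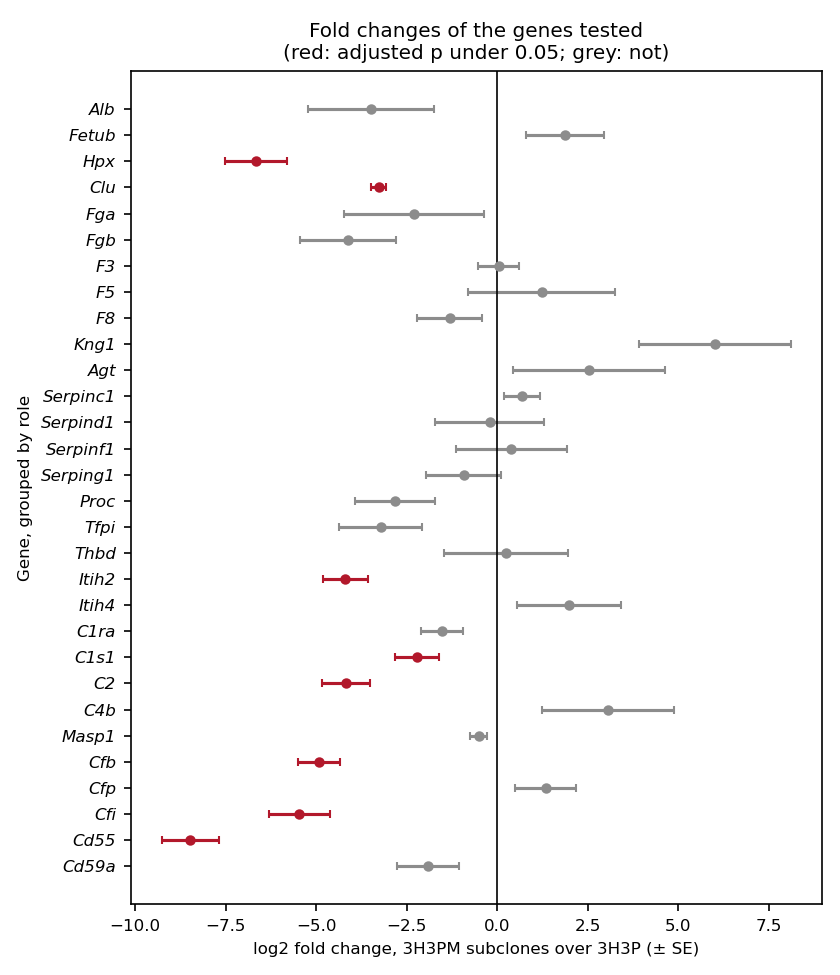
Log2 fold changes of the 30 genes tested, subclones labelled 3H3PM over the library labelled 3H3P, with standard errors from edgeR (7 libraries against 1). The 8 genes in red passed an adjusted p of 0.05 and all lie left of 0, from −2.22 for C1s1 to −6.66 for Hpx, with Cd55, which had 1 count over the subclones, beyond these, whereas Kng1 lies farthest to the right at 6.00 and did not pass.

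Promoter windows were available for 43 of the 55 genes (48 windows of 300 bases, from 250 before to 50 after the start, RefSeq, GRCm38.p6). The strings TGTTTA, bound by FOXA factors, and TATAAA, a form of the TATA box, were searched on both strands. TGTTTA was found in 8 of the 48 windows (16.7%) and in 13.4% of 32851 windows of all genes, non-coding ones included. TATAAA was found in 8 windows (16.7%, against 13.6% of all). A match is a string of letters and not evidence of binding. The 3 windows printed here are examples. Those of Agt and Fetub, which were not called lower, hold TATAAA 30 and 31 bases before the start. That of Hpx, which fell, holds neither exact string, and near matches, such as its tatataag, were not searched. A second Fetub window holds TGTTTA and no TATAAA. Among other genes not called, F3 holds TATAAA on the opposite strand, 43 bases after the start, and Fgb and Cd59a hold neither string. Of other genes called lower, Cd55, Itih2 and C1s1 also hold neither. A link between motif and call was not tested. The 3 printed windows lie at chr8:124569657-124569956 (minus strand), chr16:22918132-22918431 (plus strand) and chr7:105600067-105600366 (minus strand). They are written 5′ to 3′ on the gene's strand, with capitals at motif matches on either strand.
Agt: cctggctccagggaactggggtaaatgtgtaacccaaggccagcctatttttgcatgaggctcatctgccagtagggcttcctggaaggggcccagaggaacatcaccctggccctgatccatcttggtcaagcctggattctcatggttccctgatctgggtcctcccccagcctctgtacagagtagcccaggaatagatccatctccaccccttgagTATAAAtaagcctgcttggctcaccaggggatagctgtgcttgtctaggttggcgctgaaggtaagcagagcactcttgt
Fetub: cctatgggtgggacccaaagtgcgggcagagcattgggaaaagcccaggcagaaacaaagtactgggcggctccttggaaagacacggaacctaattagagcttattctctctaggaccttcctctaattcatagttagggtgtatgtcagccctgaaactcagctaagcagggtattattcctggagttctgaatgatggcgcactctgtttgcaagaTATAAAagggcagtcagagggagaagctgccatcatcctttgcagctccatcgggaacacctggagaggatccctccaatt
Hpx: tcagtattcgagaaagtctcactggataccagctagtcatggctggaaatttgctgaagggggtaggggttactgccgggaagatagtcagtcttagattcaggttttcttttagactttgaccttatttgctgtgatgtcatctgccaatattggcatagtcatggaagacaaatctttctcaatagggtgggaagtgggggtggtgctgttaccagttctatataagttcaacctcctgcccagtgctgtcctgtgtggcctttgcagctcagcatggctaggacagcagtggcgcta

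Among carrier proteins, hemopexin and clusterin transcripts fell in the subclones while albumin was barely detected in either group. Hpx (ENSMUSG00000030895.9, chr7:105591613-105600137, minus strand), which encodes the plasma scavenger of free haem, was at 0.76, 0.51, 0.48, 0.07, 0.27, 0 and 1.79 TPM in subclones 1, 2, 3, 6, 7, 8 and 9, against 53.6 TPM in the library labelled 3H3P. Every subclone was far below the lone library, and the log2 fold change was −6.66 (SE 0.87, adjusted p = 0.00132). Whether fewer cells made it or each cell made less cannot be told apart in bulk RNA, here or below. Clu (chr14:65968483-65981547, plus strand), for the secreted chaperone and complement inhibitor clusterin, was the most abundant of the 55 in the library labelled 3H3P. It was at 83.3 to 145 TPM (median 109) in the subclones, against 1006 TPM in that library (log2 fold change −3.28, SE 0.20, adjusted p = 6.57e-05). The subclones differed from each other by at most 1.74-fold. Alb reached 1.71 TPM in subclone 9, was at 0.09 TPM or less in the other 6, and stood at 2.79 TPM in the library labelled 3H3P (log2 fold change −3.49, SE 1.74, adjusted p = 0.193). Fetub, encoding fetuin-B, was at 2.19 to 14.7 TPM (median 6.92) in the subclones, against 2.06 TPM in the library labelled 3H3P. It was higher in 7 of 7 subclones without passing the test (log2 fold change 1.88, SE 1.08, adjusted p = 0.251). Its neighbour Ahsg, for the related fetuin-A, lies on the same strand of chromosome 16 and had 4 counts over all subclones and 0 in the library labelled 3H3P.

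The 3 fibrinogen chains assemble into the clot-forming protein and are encoded side by side on chromosome 3. Fgb, for the beta chain, was at 1.65, 0.03, 1.35, 1.25, 0, 0.03 and 0.80 TPM in subclones 1, 2, 3, 6, 7, 8 and 9, against 12.2 TPM in the library labelled 3H3P. All subclones lay below that library, some at a trace and some above 1 TPM, and the difference did not pass the test (log2 fold change −4.11, SE 1.33, adjusted p = 0.0588, with 0.00918 by limma-voom, 0.0107 on log2(TPM + 1) and up to 0.214 by DESeq2). Fga, for the alpha chain, was at 0 to 3.29 TPM in the subclones, highest in subclone 1, and at 3.11 TPM in the library labelled 3H3P (adjusted p = 0.438). Fgg, for the gamma chain, had 7 counts over all subclones and 0 in the library labelled 3H3P, so at this depth the 3 chains were not all detected in that library.

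Of the clotting factors, F3 was the only one above 3 TPM. F3 encodes tissue factor, the cell-surface trigger of clotting, and was at 13.7 to 38.0 TPM (median 24.5) in the subclones, against 21.7 TPM in the library labelled 3H3P. The groups overlapped, with 3 subclones above that library and 4 below on CPM (log2 fold change 0.03, SE 0.58, adjusted p = 0.974). The cofactor genes F5 and F8 were at 0.03 to 2.03 and 0.01 to 2.46 TPM in the subclones, against 0.20 and 1.04 TPM in the library labelled 3H3P, and neither passed (adjusted p = 0.711 and 0.330). For F8 the scales differed: subclones 7 and 9 were above that library on TPM, but 7 of 7 were below it on CPM (log2 fold change −1.32). F7 and F11 were at 0 to 0.14 and 0 TPM in the subclones, against 0.10 and 0.36 TPM in the library labelled 3H3P.

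Precursors of vasoactive peptides were among the highest of all these genes in the subclones, with large differences between isolates. Kng1, for kininogen, the precursor of bradykinin, was at 185, 21.2, 132, 57.4, 15.6, 85.4 and 10.5 TPM in subclones 1, 2, 3, 6, 7, 8 and 9, against 1.03 TPM in the library labelled 3H3P. All 7 subclones were above that library, but the 17.6-fold range between them left the difference short of the threshold (log2 fold change 6.00, SE 2.10, adjusted p = 0.0753). DESeq2 called it higher (adjusted p = 0.000774), as did limma on log2(TPM + 0.1) (0.0453), and it ran up to 0.364 over the other settings. Reads of Kng1 and its near-identical copy Kng2 are divided between them by estimation. Their summed level was 24.4 to 343 TPM in the subclones and 28.3 TPM in the library labelled 3H3P, higher in 6 of 7 subclones. The pair did not pass (log2 fold change 2.32, SE 1.44, adjusted p = 0.288). That sum includes Kng2, assigned 13.7 to 158 TPM in the subclones and 27.25 TPM in the library labelled 3H3P. How far the size for Kng1 alone rests on the division of reads was not tested. Agt, for angiotensinogen, was at 32.9, 3.09, 64.5, 309, 61.8, 464 and 92.2 TPM in subclones 1, 2, 3, 6, 7, 8 and 9, against 24.4 TPM in the library labelled 3H3P. Subclones 6 and 8 stood highest and subclone 2 below the lone library (log2 fold change 2.53, SE 2.10, adjusted p = 0.433). Plg, for plasminogen, had 2 counts over all subclones and 0 in the library labelled 3H3P.

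Of the anticoagulant and serpin genes tested, 0 of 7 passed, where 11.8% of all genes were called lower and 7.33% higher. All but Thbd stayed under 3 TPM in every library. Thbd, for thrombomodulin, which turns thrombin towards activation of protein C, was at 0.29 to 34.6 TPM (median 4.60) in the subclones, against 6.57 TPM in the library labelled 3H3P. The value of 34.6 TPM belonged to subclone 8, and 5 of 7 subclones were lower than the lone library (adjusted p = 0.933). Serpinc1, for antithrombin, was at 0.80 to 1.57 TPM in the subclones and 0.69 TPM in the library labelled 3H3P (adjusted p = 0.364). Proc, for protein C, and Tfpi, for the inhibitor of the tissue factor pathway, were at 0 to 0.54 and 0 to 1.18 TPM in the subclones, against 1.02 and 1.31 TPM in the library labelled 3H3P, lower in 7 of 7 each without passing (adjusted p = 0.106 and 0.0797). Serping1, for C1 inhibitor, Serpinf1, for pigment epithelium-derived factor, and Serpind1, for heparin cofactor II, ranged over 0.23 to 2.84, 0.06 to 2.47 and 0 to 0.75 TPM in the subclones, against 1.51, 0.87 and 0.33 TPM in the library labelled 3H3P. Their adjusted p-values were 0.559, 0.883 and 0.937.

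Of the 5 inter-alpha-trypsin inhibitor heavy chains, which bind hyaluronan in matrix and plasma, only Itih2 reached 1 TPM. Itih2 (chr2:10094593-10131396, minus strand) was at 2.72, 1.10, 2.64, 4.49, 7.37, 1.28 and 4.35 TPM in subclones 1, 2, 3, 6, 7, 8 and 9, against 59.1 TPM in the library labelled 3H3P. Subclone 7 was the highest of the subclones and still far below that library (log2 fold change −4.20, SE 0.62, adjusted p = 0.00241). Itih5, its neighbour on chromosome 2, was at 0 to 0.12 TPM in the subclones and 0.09 TPM in the library labelled 3H3P.

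**Figure D3:**
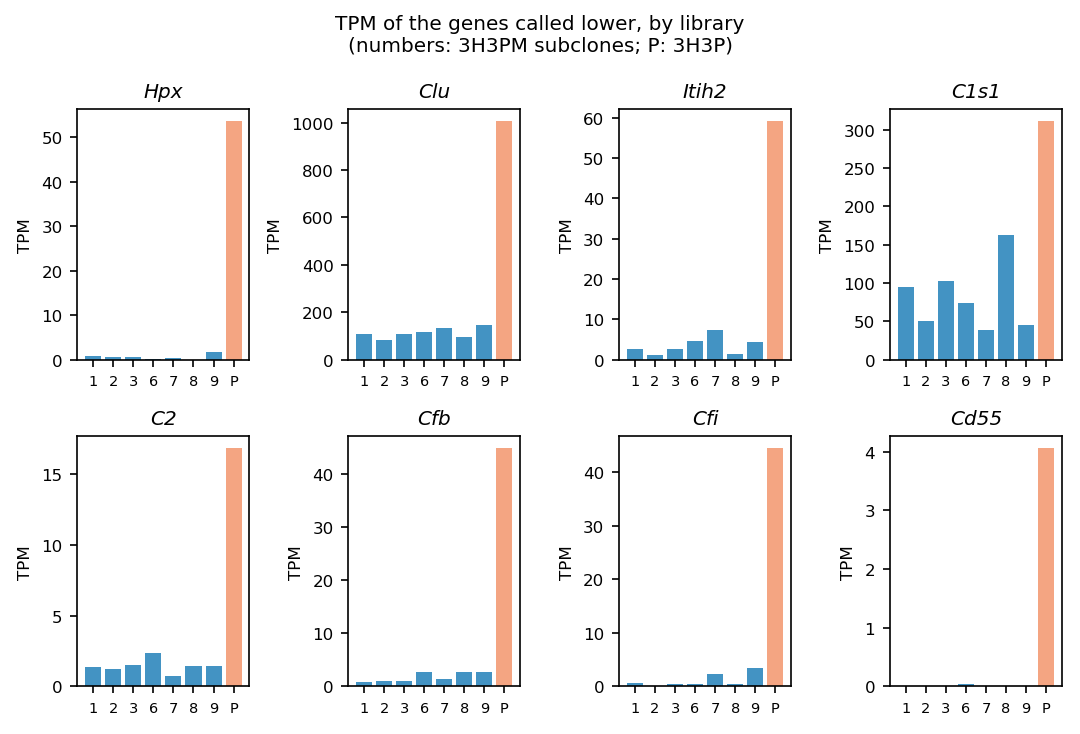
Deposited TPM of the 8 genes called lower, by library, with the subclones labelled 3H3PM in blue by number and the library labelled 3H3P in orange (1 bar per library, each axis from 0). The orange bar is above all 7 blue bars for each gene, nearest for C1s1 (163 TPM in subclone 8, 311 TPM in the library labelled 3H3P).

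Of the 5 classical and lectin route genes tested, C1s1 and C2 fell, where 11.8% of all genes were called lower. C1s1 (chr6:124530345-124542359, minus strand), for the protease that cleaves C4 and C2, was at 94.1, 50.6, 103, 74.2, 39.0, 163 and 45.5 TPM in subclones 1, 2, 3, 6, 7, 8 and 9, against 311 TPM in the library labelled 3H3P. All subclones were lower and the gene stayed abundant in each (log2 fold change −2.22, SE 0.60, adjusted p = 0.0321). That call was lost without subclone 3 (adjusted p = 0.0518) or subclone 6 (0.0539), and ran from 0.00854 to 0.0742 over all settings. C1ra, for its partner protease and encoded beside it on chromosome 6, was at 10.3 to 50.3 TPM (median 22.5) in the subclones, against 64.3 TPM in the library labelled 3H3P, also lower in 7 of 7. It did not pass (log2 fold change −1.51, SE 0.58, adjusted p = 0.0977) except without subclone 8 (adjusted p = 0.0125; up to 0.144 over the other settings). With the copies C1s2 and C1rb added in, C1s1 still passed (adjusted p = 0.0357) and C1ra did not (0.103). C2 (chr17:34862604-34898265, minus strand), for the catalytic part of the classical C3 convertase, was at 0.77 to 2.33 TPM (median 1.41) in the subclones, against 16.8 TPM in the library labelled 3H3P (log2 fold change −4.18, SE 0.67, adjusted p = 0.00351). All subclones lay well below that library. Zbtb12, on the other strand within the C2 span, was at 23.1 to 35.5 TPM in the subclones and 22.0 TPM in the library labelled 3H3P.

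C4b, which encodes complement C4, ran the other way in every subclone without passing. It was at 172, 51.1, 92.2, 22.2, 10.0, 8.46 and 14.6 TPM in subclones 1, 2, 3, 6, 7, 8 and 9, against 7.69 TPM in the library labelled 3H3P. Subclones 1, 2 and 3 held the 3 highest values, and the 20.3-fold range left the difference short of the threshold (log2 fold change 3.05, SE 1.82, adjusted p = 0.271). Summed with its copy C4a it was higher in 6 of 7 subclones on TPM (adjusted p = 0.267). Masp1, for a lectin-route protease, was one of the steadiest of the 55, at 40.0 to 59.6 TPM (median 43.1) in the subclones, against 65.2 TPM in the library labelled 3H3P (log2 fold change −0.51, SE 0.23, adjusted p = 0.153). The gene Rtp4, on the other strand, overlaps it and was at 2.52 to 5.46 TPM in the subclones and 15.0 TPM in the library labelled 3H3P. Its partners were barely seen, as Masp2 had 1 count over all subclones and 0 in the library labelled 3H3P, and Mbl2, for a mannose-binding lectin, had none in any.

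In the alternative route, Cfb (chr17:34856374-34862518, minus strand), for factor B, was at 0.85, 0.93, 1.05, 2.70, 1.31, 2.75 and 2.64 TPM in subclones 1, 2, 3, 6, 7, 8 and 9, against 44.8 TPM in the library labelled 3H3P. The subclones fell in a narrow band well below it (log2 fold change −4.92, SE 0.57, adjusted p = 0.000817). Cfb and C2 lie next to each other on chromosome 17, and the annotated gene Gm20547 overlaps both on the same strand, with 9.47 estimated counts over all subclones and 9.94 in the library labelled 3H3P. Cfp, for properdin, which stabilises the alternative convertase, was at 1.04 to 6.76 TPM in the subclones, against 0.61 TPM in the library labelled 3H3P, higher in 7 of 7 (log2 fold change 1.34, SE 0.84, adjusted p = 0.293). Of the terminal genes, Hc, for complement C5, had 1 count over all subclones and 1 in the library labelled 3H3P, C9 had 0 and 1, and C6 and C8a had none.

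Of the 3 complement regulators, Cfi and Cd55 fell, where 11.8% of all genes were called lower. Cd55 passed the filter on low counts through the library labelled 3H3P alone. Cfi (chr3:129835884-129875332, plus strand), for the protease that inactivates C3b and C4b, was at 0.56, 0.15, 0.50, 0.46, 2.27, 0.51 and 3.39 TPM in subclones 1, 2, 3, 6, 7, 8 and 9, against 44.5 TPM in the library labelled 3H3P. Subclones 7 and 9 were the highest of the 7 (log2 fold change −5.46, SE 0.85, adjusted p = 0.00312). Cd55 (chr1:130439027-130462744, minus strand), for decay-accelerating factor on the cell surface, had 1 count over all subclones, in subclone 6, and 100 counts (4.06 TPM) in the library labelled 3H3P. The ratio was 665 in favour of that library with a 95% exact binomial interval of 117 to 26524, which covers counting error only (adjusted p = 0.000304). Its copy Cd55b had 0 TPM in every library. Cd59a, for the inhibitor of the membrane attack complex, was at 0.31 to 4.86 TPM (median 3.05) in the subclones, against 9.85 TPM in the library labelled 3H3P, lower in 7 of 7 without passing (log2 fold change −1.91, SE 0.85, adjusted p = 0.147).

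**Figure D4:**
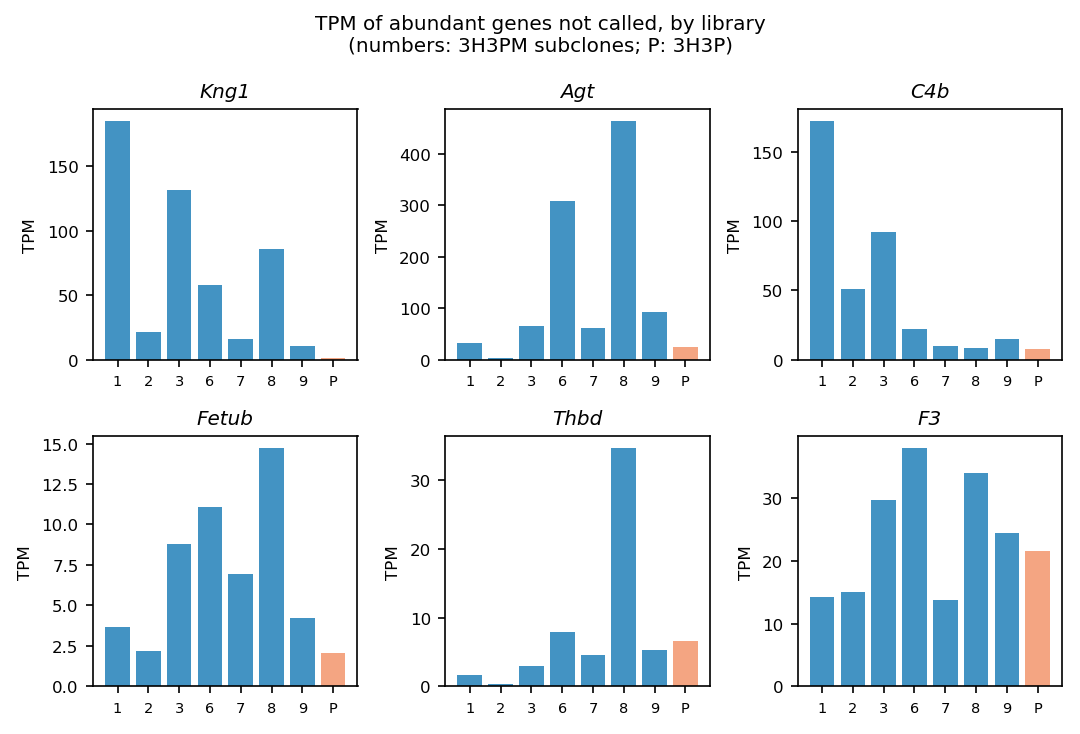
Deposited TPM of 6 of the abundant genes that did not pass the test, by library, with the subclones labelled 3H3PM in blue by number and the library labelled 3H3P in orange (1 bar per library, each axis from 0). C1ra, Masp1 and Fgb also reached 10 TPM in a library without passing and are not shown. Each was lower than the library labelled 3H3P in 7 of 7 subclones. Kng1 and C4b are highest in subclone 1 at 185 and 172 TPM, Agt and Thbd in subclone 8 at 464 and 34.6 TPM, and F3 surrounds the value of the library labelled 3H3P.

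The subclones differed among themselves more for these genes than for most. The SD of log2 CPM over the 7 subclones had a median of 0.99 across the 30 genes tested and 0.32 across all genes tested, a description that includes many low counts. Of the 26 genes that reached 1 TPM in a subclone, 9 were highest in subclone 8, 6 in subclone 1 and 0 in subclone 2, while 11 were lowest in subclone 2. Ties went to the lowest-numbered subclone, as for Fga, at 0 TPM in subclones 2, 7, 8 and 9. The same counts over all genes were not made. Clu, Masp1 and Serpinc1 differed less than 2-fold between subclones on TPM (1.74, 1.49 and 1.96-fold), whereas Agt differed 150-fold and Thbd 119-fold.

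Further genes of the same pathways were described from a list of 91 that holds none of the 55. Of these 47 were tested, 14 were lower, 2 were higher and 31 did not pass, where 11.8% and 7.33% of all genes were called lower and higher. Of the 14, 4 passed the filter on low counts through the library labelled 3H3P alone, and of the 2, 1 passed through the subclones alone, so these counts are a description only. C3, for the protein on which the 3 complement routes converge, was at 26.4 to 162 TPM (median 49.7) in the subclones, against 1120 TPM in the library labelled 3H3P (log2 fold change −3.99, SE 0.64, adjusted p = 0.00356). The transferrin gene Trf and the acute phase gene Orm1 had log2 fold changes of −6.00 and −5.03 (adjusted p = 0.000143 and 0.00331), and the thrombin receptor gene F2r one of −2.05 (adjusted p = 0.0242; 0.0731 at most over the settings).

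The rises were Plau and Csmd1. Plau, for urokinase, the plasminogen activator, was at 15.95 to 92.4 TPM (median 37.3) in the subclones, against 3.19 TPM in the library labelled 3H3P (log2 fold change 3.80, SE 1.13, adjusted p = 0.0444). It lost its call without subclone 3, 6, 7 or 9 (up to 0.0673) and by limma-voom (0.151). Csmd1, for a membrane protein with complement control domains, numbered 704 counts over the subclones and 0 in the library labelled 3H3P. It was at least 35.3-fold higher against 3 counts in that library (adjusted p = 0.0130), and was not called by limma-voom or on log2(TPM + 1) (up to 0.171).

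Transcription factor genes that drive hepatocyte secretory genes were listed alongside, and of 14 tested 6 fell, 1 rose and 7 did not pass, where 11.8% of all genes were called lower and 7.33% higher. Of the 6, 2 passed the filter through the library labelled 3H3P alone, and the 1 that rose passed through the subclones alone. Hnf4a was at 0.03 to 3.80 TPM (median 0.15) in the subclones, highest in subclone 9, the same isolate that held the most Alb, against 38.0 TPM in the library labelled 3H3P (log2 fold change −6.09, SE 1.03, adjusted p = 0.00462). Foxa2, Cebpd and Onecut1 also fell (adjusted p = 0.000817, 0.0262 and 0.0110), while Foxa1, at 4.31 to 81.1 TPM in the subclones and with no count in the library labelled 3H3P, was at least 447-fold higher (adjusted p = 0.0210, and 0.453 by limma-voom). Over the settings tried, Cebpd missed the threshold on both TPM scales, at up to 0.0892.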

How the data were processed

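Per the labels' protocols, TRIzol extracts of cultured cells (RIN above 7) were made into libraries with the NEBNext Ultra Directional reagents, 1 for each of 7 3H3PM subclones and 1 for 3H3P. FastQC, STAR, RSEM and DESeq2 were used on GRCm38 (mm10), per the submitters' processing notes. Their versions and the strand setting of the counting were not given in the sources used, so reads of overlapping antisense genes may be mixed. The expected counts deposited by the authors divide reads shared by near-identical genes (3099 to 3459 genes per library had fractional values). The deposited TPM gave levels, and the deposited FPKM and the lengths in bases (other values, deposited) entered no test.

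Expected counts were rounded and tested with edgeR 4.0.16 (R 4.3.3; glmQLFit, glmQLFTest) after filterByExpr and TMM scaling over all 8 libraries, with 6 residual degrees of freedom; genes with a Benjamini-Hochberg adjusted p under 0.05 were called. P-values measure the spread between isolates. Alternatives used DESeq2 1.42.0, limma 3.58.1, other scalings, filters and pseudocounts, and left out each subclone; sums of near-identical gene pairs were added after the data were seen. Positions come from GENCODE vM21, found for 54 of 55 genes. Genes given in full were those called or at 10 TPM or more in a library; from the list of 91, up to 5 rises and 5 falls at a mean CPM of 1 or more; and called transcription factors. Some listed items are not reported here. The genes and lists were chosen with earlier results of these data known.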

Additional observations from a re-analysis of the deposited data

Results flagged for a closer look

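A gap test over the 7 subclones on log2 CPM (gap to the nearest value over the range, critical value 0.568) picked out 5 of 46 genes examined. Chance alone gives about 1 in 20 for normally distributed values. That rate does not hold for genes with few counts, such as Cd55, Alb and Itih4, so the number picked out is a description only. Alb was highest in subclone 9 (1.71 TPM, gap 0.784 of the range). F8 was lowest in subclone 8 (0.01 TPM, 0.643) and Itih4 highest there (0.66 TPM, 0.79). Cd55 was highest in subclone 6, which held its 1 count among the subclones (gap 1). The transcription factor gene Cebpd was lowest in subclone 2 (3.25 TPM, 0.576).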

How the results depend on the processing

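No paired analysis was possible because 3H3P has 1 library and its label carries no replicate number. The 55 genes gave 5 calls lower with a CPM of at least 1 asked in at least 4 libraries, a filter that left 19 of them, and 13 with limma-voom. They gave 1 call higher, Kng1, with DESeq2 and 1 on log2(TPM + 0.1). Their median log2 fold change was −0.52 with that stricter filter and −0.63 on log2(TPM + 1), and −1.81 to −1.31 without 1 subclone. Over all genes DESeq2 called 1675 higher, and the count was 669 without subclone 3 and up to 1185 without another, against 1072 with all. From the list of 91 genes, those higher numbered 4 with DESeq2, 0 with limma-voom, 1 on log2(TPM + 1) and 1 to 3 without 1 subclone. Over all genes DESeq2, limma-voom and log2(TPM + 1) called 1675, 958 and 1205 higher. Those lower from the list numbered 7 with the stricter filter and 9 on log2(TPM + 0.1). Over all genes these 2 settings called 1166 and 1329 lower. The cause was not tested apart from the genes that the stricter filter removes. Of the values of single named genes under alternatives, 434 stayed on their side of the threshold, 19 lost and 5 gained a call, and no call changed sign. Genes under about 1 TPM rest on few counts, which leaves the size of their fold changes uncertain.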

Other observations

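Several abundant plasma protein genes outside the 55 did not pass the test and are given as values, chosen after they were seen. Hp, for haptoglobin, was at 547 to 2999 TPM (median 1593) in the subclones, against 312 TPM in the library labelled 3H3P, higher in 7 of 7 (adjusted p = 0.113). Cp, for the copper carrier ceruloplasmin, was at 312 to 925 TPM in the subclones and 545 TPM in the library labelled 3H3P (adjusted p = 0.997). Rbp4, for the retinol carrier, was at 154 to 366 TPM in the subclones and 346 TPM in the library labelled 3H3P (adjusted p = 0.491). Gc, for the vitamin D-binding protein, was at 4.67 to 165 TPM in the subclones, lowest in subclone 2, and 71.3 TPM in the library labelled 3H3P (adjusted p = 0.894).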
